A study of Mus musculus with 12 samples.

Results

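The dorsal piece of the embryonic mouse cerebral hemisphere was set against the other 4 pieces into which hemispheres were divided. The comparison used 10 of the 12 arrays of the series: the 2 arrays titled Dorsal, and the 8 arrays titled Medial, Ventral, Rostral and Occipital, 2 of each. The reference was the mean of the 4 region means, and the 2 arrays of whole hemisphere were left out of it. All groups were taken from cerebral hemispheres of mouse embryos at E16.5, with no treatment or genotype in the labels, and differed by label only in the piece taken. The replicates were separate dissections by the labels. Strain, sex, litter and the number of embryos in a sample are not given in the sources used here, so the p-values measure the spread between these samples. Of the 5 pieces 1 is rostral in the titles and lateral in the protocol, and the title was used. RNA was labelled and hybridised to Affymetrix U74Av2 oligonucleotide arrays. A value is the probe set's average difference intensity, a linear array unit in which readings under 693.5 were treated as background (the floor).

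At this age of the cortex, excitatory neurons arise from progenitors of the pallial wall, deep-layer neurons first and upper-layer neurons later. GABAergic interneurons are born in the ventral telencephalon and reach the dorsal cortex by tangential migration, and many of them later make neuropeptides such as neuropeptide Y or somatostatin. Microglia, vessels and meninges share the same tissue. A piece of tissue holds all of these cells, and in such bulk samples fewer cells of a type and less RNA per cell cannot be told apart.

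Markers of pallial neurons were present on the dorsal arrays, though they do not tell the dorsal piece from the others. Tbr1, a transcription factor of deep-layer pallial neurons, read 24036 and 21368 on the dorsal arrays and 13630 to 22658 on the other 8. Neurod2, a bHLH factor of pallial neurons, read 27228 and 40284 against 11250 to 32729. Both dorsal readings of the ventral telencephalic factor Lhx8 (80 and -10) were under the floor, as were both medial ones (152 and 252). Rostral replicate 1 (152) and occipital replicate 2 (617) were under it too, while rostral replicate 2 read 4648 and occipital replicate 1 read 4665. The ventral arrays read 6752 and 5537. Across the 12 arrays 39.1% to 41.7% of probe sets were above 1387, which is 2 times the floor, and the 5′ to 3′ ratio of the actin control was 0.706 and 0.886 on the dorsal arrays, within the range of the other 8 (0.665 to 0.887). The dorsal arrays correlated with each other at r = 0.962 across probe sets, and dorsal replicate 1 with medial replicate 1 at 0.965. Of the reference arrays, rostral replicate 2 and occipital replicate 1 resembled each other (r = 0.963) more than their own replicates (0.934 and 0.936), so the main counts are also given without the arrays of both regions.

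Few probe sets differed between the dorsal piece and the mean of the other 4 pieces. Of 5832 probe sets tested with limma, 16 (0.274%) passed an adjusted p of 0.05. Of these, 7 (0.12%) were higher and 9 (0.154%) were lower in the dorsal piece, and they stand for 6 and 8 named genes. The higher genes were Ccl4, Npy, Nfe2l3, Tgfbr1, Ablim1 and Slc8a1. Of the 7 higher probe sets, 3 (Ccl4, Nfe2l3 and Tgfbr1) entered the test through the dorsal arrays alone. These 3 could only differ upward, and their calls are no support beyond their readings. The lower genes were Pbx3, St6galnac5, Calb2, Ripor2, Gad1, Apoe, Tmeff2 and Resp18. At an unadjusted p under 0.05 there were 386 probe sets. Without either dorsal array the count was 2, Ccl4 and Npy in both cases, and without the rostral and occipital arrays it was 28, of which 9 were among the 16. Leaving out any other single array gave 4 to 16, lowest without ventral replicate 1 (4) and medial replicate 1 (5), and a reference mean without the ventral piece gave 8.

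Npy and Gad1 belong to the same class of cells, GABAergic neurons, and moved in opposite directions, so the 150 bases before the start of each gene are shown (RefSeq, GRCm38.p6, both on the plus strand, 5′ to 3′). RefSeq windows were matched by symbol for 10 of the 14 named genes. Capitals mark each match, on either strand, to the TATA box TATAAA or the GC box GGGCGG. The Npy window lies at chr6:49822560-49822709 and the Gad1 window at chr2:70561979-70562128.
Npy: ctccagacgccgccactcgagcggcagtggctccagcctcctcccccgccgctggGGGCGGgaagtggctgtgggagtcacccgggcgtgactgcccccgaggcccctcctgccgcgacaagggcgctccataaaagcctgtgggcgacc
Gad1: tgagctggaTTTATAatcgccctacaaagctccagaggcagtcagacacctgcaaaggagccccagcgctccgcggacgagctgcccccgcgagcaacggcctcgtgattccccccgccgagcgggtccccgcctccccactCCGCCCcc
Npy holds 1 GC box match, starting 95 bases before the gene's start. Gad1 holds a GC box match on the opposite strand, starting 8 bases before the gene's start, and a TATAAA match on the opposite strand at 141. Of 32843 windows of the same length, 28.6% hold GGGCGG and 7.58% hold TATAAA, and of the 10 windows of the named genes 6 and 2 do. The matches of these motifs overlap no other match here, and they describe letters, not sites. The other motif searched, CCAAT, is held by 24.5% of all windows and by 3 of the 10, though by neither gene shown.

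**Figure D1:**
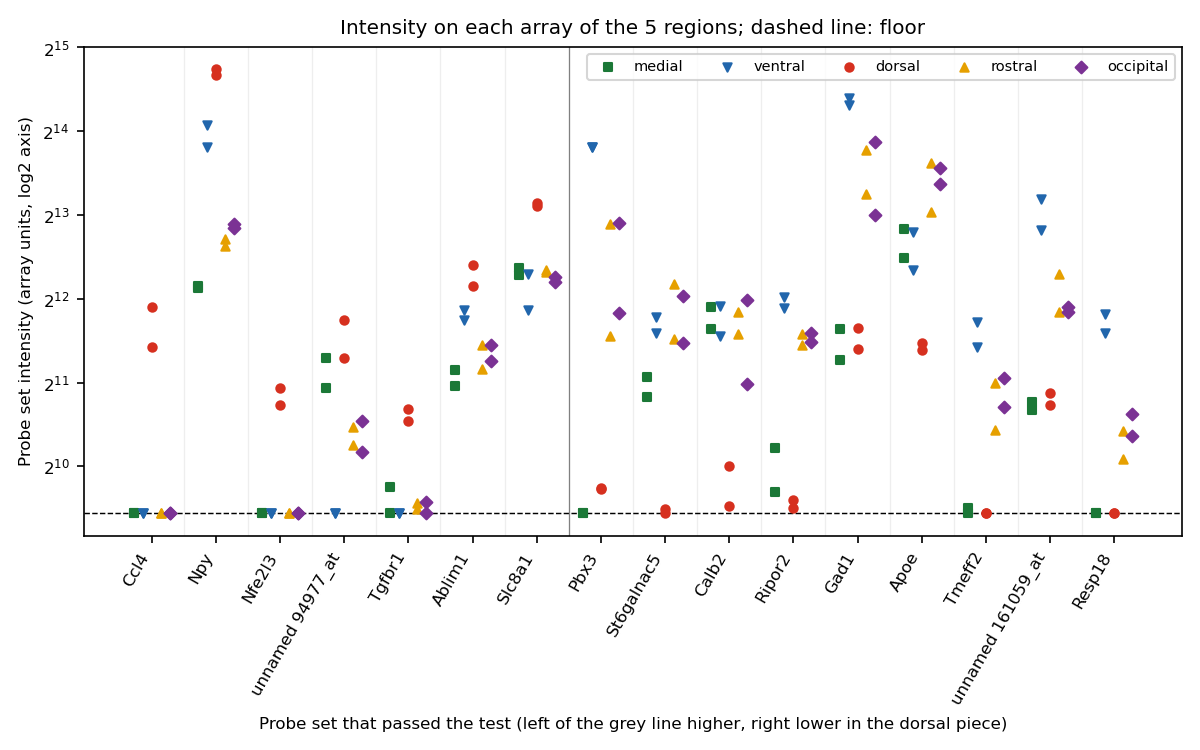
Intensity (log2 axis) on each of the 10 arrays for the 16 probe sets that passed, with readings under the floor drawn at the floor (dashed line). The 7 probe sets left of the grey line have both dorsal arrays (red circles) above all others, while medial arrays (green squares) lie as low as the dorsal ones for Gad1, Tmeff2 and Resp18.

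Npy, the gene of neuropeptide Y, was higher in the dorsal piece than in every other piece. It read 26128 and 27370 on the dorsal arrays. The medial arrays read 4480 and 4552, the ventral 17194 and 14337, the rostral 6319 and 6694, and the occipital 7591 and 7331. Both dorsal readings were above all 8 others, and the order of the regions was dorsal, ventral, occipital, rostral and medial. The log2 difference was 1.80 ± 0.12 (SE), or 3.49-fold (limma adjusted p = 0.000394). Npy also passed against each region alone. Its fold was 5.92 over medial (adjusted p = 0.000288), 4.11 over rostral (0.0016), 3.58 over occipital (0.00243) and 1.70 over ventral (0.0245), comparisons that share the dorsal arrays. The whole hemisphere arrays read 13100 and 14165.

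Ccl4 encodes the chemokine macrophage inflammatory protein 1 beta, which attracts immune cells. It read 2746 and 3822 on the dorsal arrays. On the 8 other arrays it ran from -139 to 524, and on the hemisphere arrays it was -281 and -108, so the dorsal arrays alone were above the floor. It was at least 4.67-fold higher (log2 2.22 ± 0.14 SE against the floor, limma adjusted p = 0.000394), and at least that against each region alone, with adjusted p = 0.0016 for medial and rostral, 0.00107 for ventral and 0.00243 for occipital. Ccl4 entered the test through the dorsal arrays alone, so its difference could only be upward and its p-values are no support beyond its readings. Npy and Ccl4 were the 2 probe sets that passed against all 4 regions with 1 sign. The list of chemokines, cytokines and their receptors had 44 genes on the array. Of these 37 did not pass the filter, 31 of them at or under the floor on all 12 arrays, and of the 7 tested 1 rose and 0 fell. Ccl3, the neighbouring chemokine of the same family, read -3 and 304 on the dorsal arrays and at most 673 on the others.

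Microglia and macrophages are known sources of this chemokine, and their markers were read beside it. Of 11 markers tested, 0 rose and Apoe fell, with a median log2 difference of -0.14 against 0.02 over all 4562 genes. The sum of the 10 markers other than Apoe was 16933 and 15060 on the dorsal arrays and 14803 to 20073 on the others, so the groups overlapped. Csf1r, the receptor that microglia need to survive, read 1720 and 1324 on the dorsal arrays and 1132 to 1828 on the others. Of 20 further markers that did not pass the filter, 13 were at or under the floor on all 12 arrays, among them Aif1, Ptprc, Lyz2 and Spi1. The part of microglia in the Ccl4 readings was not tested.

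Among the other higher genes, Nfe2l3 and Tgfbr1 were close to background in the other pieces. Nfe2l3, a basic leucine zipper transcription factor, read 1952 and 1705 on the dorsal arrays and -67 to 486 on the other 8, all under the floor. It was at least 2.63-fold higher (log2 1.40 ± 0.16 SE, limma adjusted p = 0.0147), though 1 hemisphere array read 1082. Tgfbr1, the type I receptor for transforming growth factor beta, read 1488 and 1648 on the dorsal arrays and 132 to 861 elsewhere, with a log2 difference of 1.10 ± 0.13 (SE, adjusted p = 0.0147). Nfe2l3 and Tgfbr1, like Ccl4, entered the test through the dorsal arrays alone, as did 4 probe sets in all. These genes could only differ upward, and their p-values are no support beyond their readings. Against single regions Nfe2l3 and Tgfbr1 passed against ventral (adjusted p = 0.00721 and 0.00543) and had adjusted p of 0.0647 to 0.0938 against the others. Both lost their calls without either dorsal array and without ventral replicate 1, and Nfe2l3 also without medial replicate 1.

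Slc8a1 and Ablim1 were well above the floor everywhere. Slc8a1, a sodium-calcium exchanger of the plasma membrane, read 9078 and 8801 on the dorsal arrays and 3719 to 5281, with a median of 5015, on the others. The dorsal mean was 8940 ± 196 (SD, n = 2), 1.84-fold above the reference (log2 0.88 ± 0.14 SE, adjusted p = 0.0469), and the differences to the 4 regions were close to each other, from 0.79 to 1.05. Ablim1, an actin-binding LIM protein, read 5433 and 4536 against 1985 to 3734. It was 1.86-fold higher (adjusted p = 0.0494), with 1.22 ± 0.18 (SE) over medial and 0.47 ± 0.18 over ventral in log2, and it is the probe set of the 16 that did not pass against ventral. Both calls depended on single arrays: Ablim1 lost its call without any 1 of them, and Slc8a1 without any 1 but ventral replicate 2. A probe set with no gene name was also 2.30-fold higher (adjusted p = 0.0441), with 3444 and 2512 on the dorsal arrays, 2507 and 1953 on the medial ones and at most 578 on the ventral ones.

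The lower probe sets fell into those that were lowest in the dorsal piece and those that were as low in the medial piece. St6galnac5, a sialyltransferase of ganglioside synthesis, read 632 and 720 on the dorsal arrays and 1812 to 4614 on the others, with the medial arrays next above the dorsal ones (2151 and 1812). It was 4.27-fold lower (log2 -2.09 ± 0.20 SE, limma adjusted p = 0.00562). Calb2, the calcium-binding protein calretinin of interneurons and Cajal-Retzius cells, read 1024 and 738 against 2017 to 4060, and was 3.76-fold lower (log2 -1.91 ± 0.27 SE, adjusted p = 0.0391). Its differences to the regions were alike in size, from -1.72 against occipital to -2.01 against medial. Apoe, the lipid carrier apolipoprotein E made by glia, macrophages and meningeal cells, read 2838 and 2689 against 5209 to 12554, and was 2.98-fold lower (log2 -1.57 ± 0.21 SE, adjusted p = 0.0295). The ventral and medial arrays held the lower Apoe readings of the reference (5209 to 7280) and the rostral and occipital arrays the higher ones (8380 to 12554).

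Ripor2, an inhibitor of RhoA signalling, read 773 and 727 on the dorsal arrays, 831 and 1189 on the medial arrays and 2785 to 4167 on the others. It was 3.23-fold lower (log2 -1.69 ± 0.18 SE, adjusted p = 0.00891), and its difference to medial was -0.41 ± 0.22 (SE). These 4 genes, St6galnac5, Calb2, Apoe and Ripor2, had both dorsal arrays below all 8 others.

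For the remaining lower genes the medial and the dorsal readings overlapped or stood side by side. Gad1, the GABA-synthesising enzyme GAD67, read 3224 and 2701 on the dorsal arrays and 3184 and 2478 on the medial ones. It read 21535 and 20368 on the ventral arrays, 9787 and 13984 on the rostral and 14941 and 8168 on the occipital ones. It was 3.16-fold lower than the reference (log2 -1.66 ± 0.24 SE, adjusted p = 0.0396), while the difference to medial was 0.07 ± 0.31 (SE). Pbx3, a TALE homeodomain factor, read 851 and 857 on the dorsal arrays, 281 and 397 on the medial and 14358 and 14401 on the ventral ones, so the medial piece was lower still. It was 4.67-fold lower than the reference on this probe set (log2 -2.22 ± 0.34 SE, adjusted p = 0.0469). The 2 further probe sets of Pbx3 gave -1.60 (adjusted p = 0.213) and -2.07 (0.0715), so they disagree about the call.

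Tmeff2, a transmembrane protein with follistatin-like domains, and Resp18, a protein of dense-core secretory granules, were under the floor on both dorsal arrays. Tmeff2 read 484 and 425 there, 723 and 510 on the medial arrays and 1386 to 3378 on the others (log2 -1.22 ± 0.17 SE, adjusted p = 0.0391). Resp18 read 341 and 271, with 430 and 514 on the medial arrays and 1091 to 3608 on the others (log2 -1.04 ± 0.14 SE, adjusted p = 0.0295). Against the ventral piece alone they were at least 4.40-fold and at least 4.82-fold lower. A second probe set with no gene name showed the same pattern, with 1886 and 1708 on the dorsal and 1748 and 1626 on the medial arrays against 3662 to 9374 on the others (log2 -1.10, adjusted p = 0.0391). St6galnac5 and Ripor2 lost their calls without either dorsal array and kept them without any other single array. The other 6 lower genes lost theirs without any 1 dorsal, medial or ventral array. With the medial piece left out of the reference mean 43 probe sets passed, among them 15 of the 16, and 33 of the 43 were lower in the dorsal piece.

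**Figure D2:**
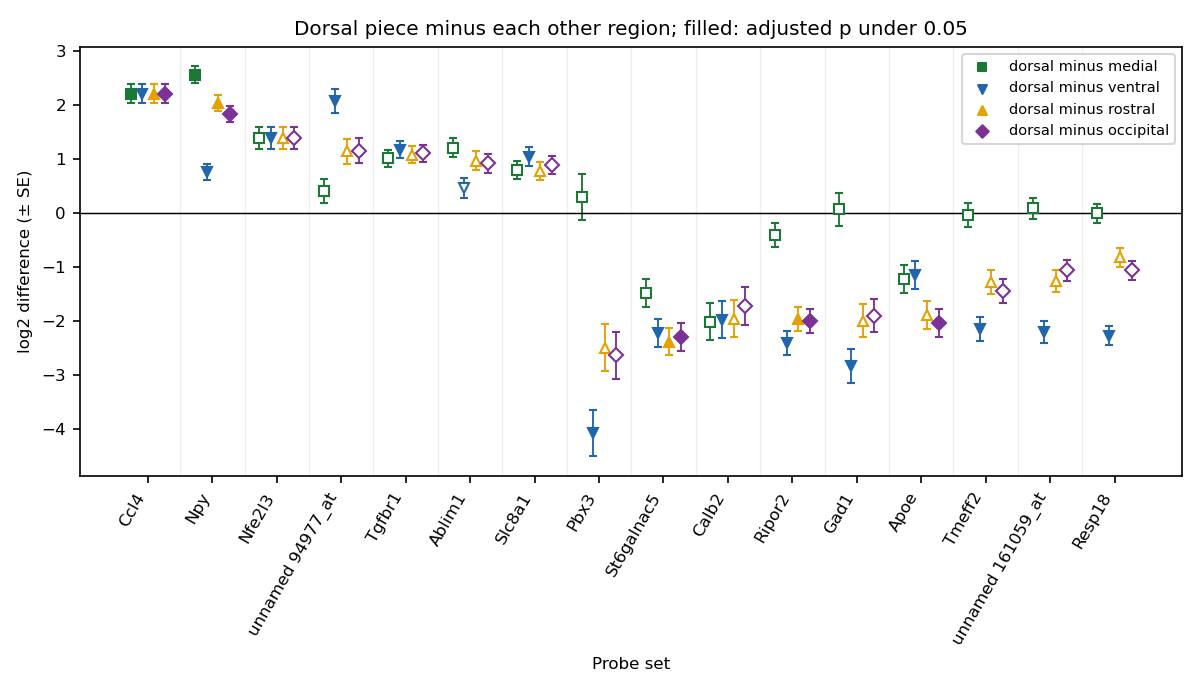
The log2 difference (± SE) of the dorsal piece to each of the 4 other regions for the 16 probe sets, with filled symbols where that pair passed. Differences to medial (green squares) lie near 0 for Gad1, Tmeff2, Resp18 and the unnamed probe set among the lower ones (-0.03 to 0.09), and Npy and Ccl4 are filled for all 4 regions.

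The single pairs differed in how many probe sets passed, and all 4 share the dorsal arrays. Against ventral 308 of 5832 probe sets passed (5.28%), 145 higher and 163 lower in the dorsal piece. Against medial and against rostral 4 passed each (0.0686%), and against occipital 6 (0.103%). The root mean square log2 difference was 0.55 to ventral, 0.36 to occipital, 0.35 to medial and 0.32 to rostral, each between means of 2 arrays. Between the 2 dorsal arrays it was 0.40, but that sets single arrays against each other. Single arrays vary more than means, so the 0.40 is not a like measure. Of the 16 probe sets 15 passed against ventral, 10 passed against 1 region, 1 against 2, 2 against 3 and 2 against all 4.

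Against the ventral piece, 3 genes of pallial progenitors and neurons led the higher probe sets and 3 genes of ventral telencephalic neurons the lower ones. Insm1, a zinc finger gene of neurogenic progenitors, was 9.04-fold higher and Eomes, the factor of intermediate progenitors, at least 7.31-fold. Nfix, a nuclear factor I gene, was 6.68-fold higher. Penk (at least 17.1-fold, on a family-matching _f probe set), Pbx3 (16.8-fold) and Sst, the gene of somatostatin (13.2-fold), were lower, with limma adjusted p of 0.00246 to 0.00583 for the 6.

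Against the medial piece the genes that passed besides Npy and Ccl4 were Hopx and Pter, both lower in the dorsal piece. Hopx, an atypical homeodomain protein of radial glia, read 2332 and 2124 on the dorsal arrays and 8015 and 6480 on the medial ones, a 3.24-fold difference (log2 -1.70 ± 0.22 SE, limma adjusted p = 0.0472). On the other 6 arrays it read 2727 to 4202, so the dorsal piece was lowest and the medial piece highest. Pter, a phosphotriesterase-related protein, had a dorsal mean of 527 ± 173 and a medial mean of 1586 ± 111 (SD, n = 2 each) and was at least 2.28-fold lower (adjusted p = 0.0458). Hopx and Pter both lost their calls without any 1 dorsal, medial, ventral or occipital array, and Pter also without either rostral array. Npy passed in each of these fits. Ccl4 did too, but it entered the test through the dorsal arrays alone, so its passing says little about stability.

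Against the rostral and the occipital piece the same pair of genes was higher, and Ripor2 and St6galnac5 were lower. Ripor2 was 3.90-fold lower than in the rostral piece (adjusted p = 0.0178) and 3.97-fold lower than in the occipital piece (0.0162). St6galnac5 was 5.21-fold (0.0134) and 4.89-fold (0.0162) lower. Apoe (4.10-fold lower, adjusted p = 0.0367) and Tmem11, a protein of the inner mitochondrial membrane, passed against occipital in addition. Tmem11 had a dorsal mean of 2207 ± 295 and an occipital mean of 803 ± 138 (SD, n = 2 each), 2.76-fold higher in the dorsal piece (adjusted p = 0.0466). Without occipital replicate 2 the count against occipital was 0 (273 at an unadjusted p under 0.05), and without either dorsal array it was 1. Fitted on the 4 arrays of each pair alone, limma passed 0 against medial, rostral and occipital (484, 298 and 374 at an unadjusted p under 0.05) and 210 against ventral.

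**Figure D3:**
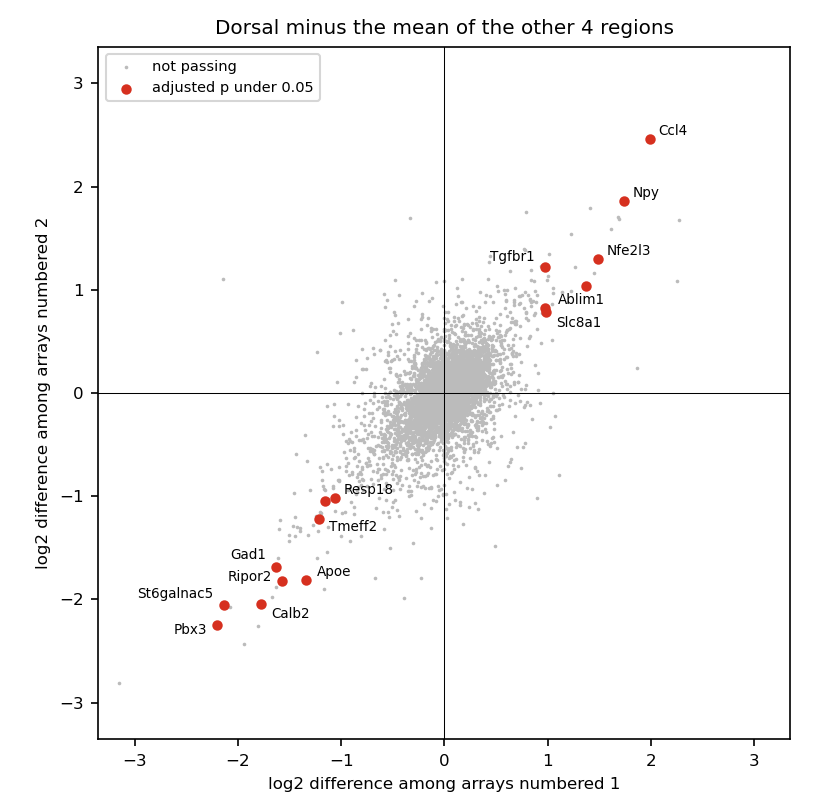
The log2 difference between the dorsal piece and the mean of the other 4 regions among the arrays numbered 1 (x axis) and among those numbered 2 (y axis), for 5832 probe sets. The 16 that passed (red) lie in the corners where both differences have 1 sign, and over all probe sets the 2 differences correlated at r = 0.584.

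All 16 probe sets had the same sign in both replicates, as did 67.5% of all 5832. The 16 were called from these same arrays, so their shared sign is no separate support. Values without overlap were more frequent than calls. Of 4562 genes 135 (2.96%) had both dorsal arrays above all 8 others and 95 (2.08%) had both below, and 16 and 20 of these differed at least 2-fold. With 2 arrays against 8 such an order also arises by chance, and these shares were not tested against that. The dorsal mean was the highest of the 5 regions for 1031 probe sets (17.7%) and the lowest for 865 (14.8%). The ventral mean was the highest for 1827 and the lowest for 2012, and the medial mean for 1610 and 1411. For the occipital mean the counts were 770 and 798, and for the rostral mean 594 and 746.

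Several of the non-overlapping genes had differences as large as those of the genes that passed, with more spread. They were chosen after their values were seen. Bcl6, a transcriptional repressor that promotes neurogenesis, read 4797 and 3330 on the dorsal arrays and 140 to 1949 on the others, with a log2 difference of 1.98 ± 0.41 (SE, limma adjusted p = 0.132). In the fit without the rostral and occipital arrays its difference was 2.10 and passed (adjusted p = 0.0296). Tiparp, a mono-ADP-ribosyltransferase, had a log2 difference of 1.69 ± 0.29 (SE). The axon growth gene Nav2 and the neurotensin receptor gene Ntsr1 had 1.60 ± 0.47 and 1.39 ± 0.44. Zic1, a zinc finger factor of meninges and of the septum, read 599 and 906 on the dorsal arrays. It read 3108 and 3436 on the medial, 6841 and 7452 on the ventral, 3284 and 22097 on the rostral and 20733 and 2878 on the occipital arrays, so the replicates of those last 2 regions differed widely. Its log2 difference was -2.98 ± 0.76 (SE, adjusted p = 0.242), and -2.61 without the rostral and occipital arrays, where it passed (0.00619).

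Genes of GABAergic cells were the list with the lowest median. Of 17 tested, Npy rose, and Gad1 and Calb2 fell. The median log2 difference was -0.83, against 0.02 over all 4562 genes, and 2 of the 17 had a positive difference, against 53.1% of all genes. By region the list median was 0.04 to medial, -1.17 to ventral, -1.3 to rostral and -1.27 to occipital. It did not set the dorsal piece apart from the medial one. Of the genes that did not pass, Sst had a log2 difference of -1.82 ± 0.31 (SE, limma adjusted p = 0.0715). It read 4296 and 2876 on the dorsal arrays, 3969 and 1730 on the medial and 50907 and 42183 on the ventral ones. Slc32a1, the vesicular GABA transporter, had -1.44 ± 0.25 (0.0715), with 1647 and 2010 on the dorsal arrays and 1550 to 13010 on the others.

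The transcription factors of the list did not share 1 value. Dlx1 and Dlx5, homeobox factors of the ventral telencephalon, had -0.83 ± 0.30 and -1.33 ± 0.42 (SE). Lhx6, the factor of interneurons from the medial ganglionic eminence, had -0.06 ± 0.14 and read 7523 and 6786 on the dorsal arrays against 5603 to 11378 on the others. The sum of the 14 list members other than the 3 that passed was 56315 and 51011 on the dorsal arrays and 48139 to 140921 on the others. Against medial alone Gad1 (0.07) and Slc32a1 overlapped between the pieces, and Npy was 5.92-fold higher.

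Marker genes of upper-layer neurons had the highest median of the lists, with none passing. Of 13 tested, 0 rose and 0 fell. A positive difference was held by 11, against 53.1% of all genes, and the median log2 difference was 0.69. The median was 0.43 with the ventral piece left out of the reference, 0.34 without dorsal replicate 2 and 0.92 without dorsal replicate 1. By region the upper-layer median was 0.25 to medial, 0.91 to ventral, 0.61 to rostral and 0.52 to occipital. Against medial the deep-layer and subplate list (0.43) and the diencephalic list (0.38) had higher medians. Cux1, a homeobox factor of upper layers, read 13495 and 11888 on the dorsal arrays and 4700 to 8365 on the others (log2 0.92 ± 0.21 SE, limma adjusted p = 0.161). Lpl, lipoprotein lipase, and Ptn, the growth factor pleiotrophin, also had both dorsal arrays above all others, by small margins: 9341 and 9303 against at most 9075, and 2765 and 2813 against at most 2616. Mef2c, a neuronal MADS-box factor, differed between the dorsal arrays themselves, with 7108 and 18248. Lmo4, a LIM-only cofactor, was the opposite case: 14866 and 11848 on the dorsal arrays, below all 8 others (16940 to 32210), with -0.78 ± 0.25 (SE, adjusted p = 0.412).

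**Figure D4:**
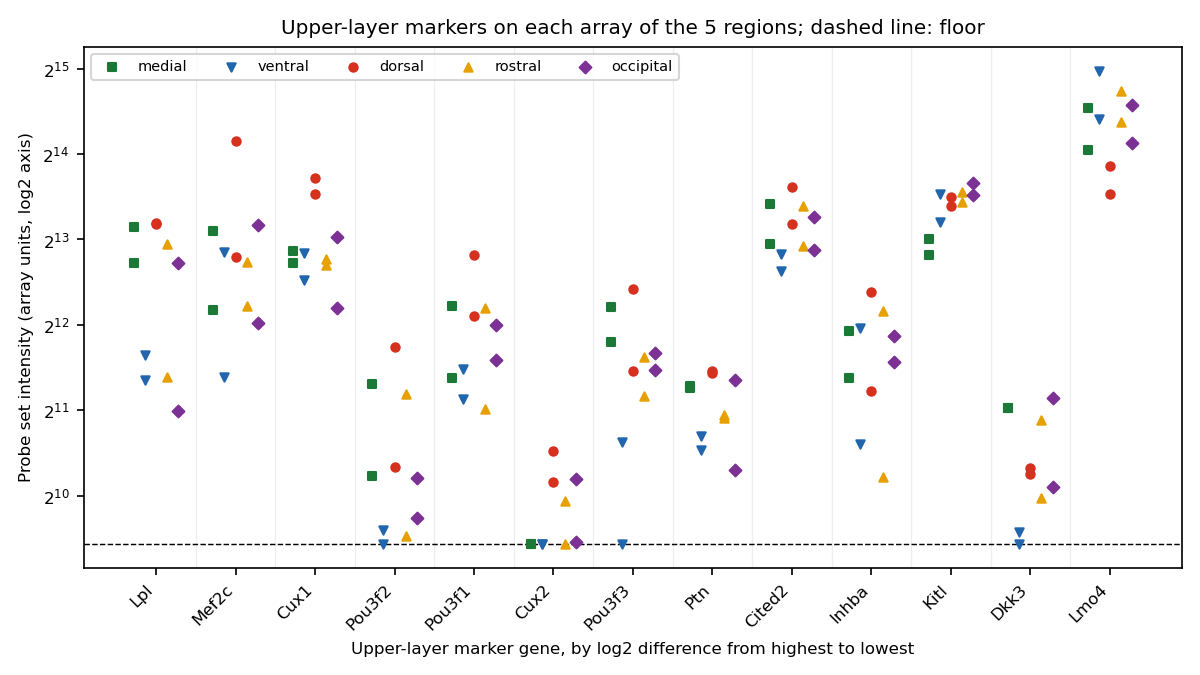
Intensity (log2 axis) of the 13 upper-layer markers on each of the 10 arrays, ordered by log2 difference, with the floor as a dashed line. Both dorsal arrays (red circles) lie above all others for Lpl, Cux1 and Ptn and below them for Lmo4, and the 2 dorsal arrays are far apart for Mef2c and Pou3f2.

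Other lists of excitatory lineage genes had smaller medians. Of 8 deep-layer and subplate genes tested, Slc8a1 rose and 0 fell (median 0.33, and 0.10 without the ventral piece in the reference). A positive difference was held by 5 of the 8, while Crym had -1.36 ± 0.73, Igfbp4 -0.64 ± 0.24 and Nr4a2 -0.32 ± 0.57 (SE). Crym read -1 and -39 on the dorsal arrays, -139 and 119 on the ventral and 4705 and 4357 on the medial ones. In the limma fit without the rostral and occipital arrays its difference was -1.35 and passed (adjusted p = 0.0163). Tle4, a corepressor of corticothalamic neurons, read 5755 and 5058 against 2271 to 4636, with 0.63 ± 0.23 (SE), while Fezf2, which specifies subcerebral neurons, read 13907 and 14970 within a reference of 2262 to 20369. Of 11 pallial neuron genes 0 passed. Their median was 0.26, and 0.06 without the ventral piece in the reference, 0.04 without dorsal replicate 2 and 0.75 without dorsal replicate 1. The bHLH factor Neurod6 had 0.76 ± 0.20 (SE), with 15080 and 14862 on the dorsal arrays against 4384 to 13400. Of 12 intermediate progenitor genes 0 passed (median 0.31, and -0.02 without the ventral piece in the reference), with Eomes reading 4460 and 5764, between the medial arrays (7361 and 9542) and the ventral ones (231 and 240).

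Apical progenitor genes lay on the other side. Of 23 tested 0 passed, 4 had a positive difference, against 53.1% of all genes, and the median was -0.33. It was -0.17 without dorsal replicate 1, -0.20 without the rostral and occipital arrays and -0.53 without the ventral piece in the reference. By region the median was -0.62 to medial, -0.55 to rostral, -0.47 to occipital and 0.18 to ventral, which share the dorsal arrays. The stem cell intermediate filament gene Nes (nestin) read 8746 and 8665 on the dorsal arrays, under the medial (13327 and 13363), rostral and occipital (9789 to 10916) and above the ventral arrays (7160 and 7927). Hopx had -0.86 ± 0.17 (SE, limma adjusted p = 0.127), with both dorsal arrays below all others. Of 37 cell cycle genes 0 passed (median 0.05, and -0.28 without the ventral piece in the reference).

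**Figure D5:**
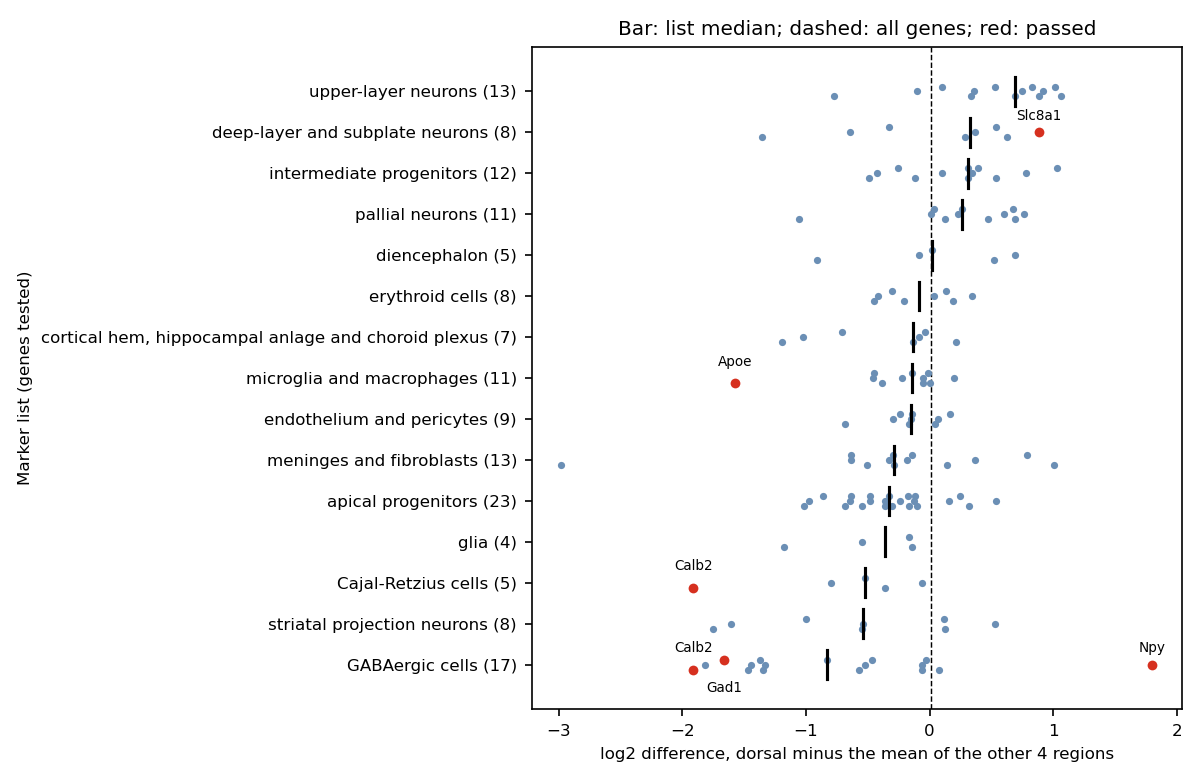
The log2 difference between the dorsal piece and the mean of the other 4 regions for each tested gene of 15 marker lists, with the list medians as bars and the median of all genes (0.02) dashed. Upper-layer genes have the highest median (0.69) and GABAergic genes the lowest (-0.83); Pbx3 is drawn by its probe set with the highest mean (-1.60), which did not pass.

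Markers of cells from outside the cortical plate were read for the same contrast. Of 8 genes of striatal projection neurons Pbx3 fell by 1 of its 3 probe sets and 0 rose. The median was -0.54, taken with the Pbx3 probe set of the highest mean, which did not pass, and it was -0.99 with the floor at 346.8. Their sum was 13732 and 12578 on the dorsal arrays, 10907 to 50575 on the others. Of 5 Cajal-Retzius genes Calb2 fell (median -0.52). Reln, the secreted glycoprotein reelin of these cells, read 8861 and 6688 against 8525 to 20900, with -0.79 ± 0.28 (SE). Of 13 genes of meninges and fibroblasts 0 passed (median -0.29, and -0.11 without dorsal replicate 1, sums of 34824 and 39665 against 35584 to 57753). A positive difference was held by 4 of the 13. Fibronectin (Fn1) read 5296 and 5899, above all others (1533 to 4210). It was the 1 gene of the 13 with both dorsal arrays above all others, against 2.96% of all genes. Zic1, Timp3 and Gpc3 had both dorsal arrays below all others, as did 2.08% of all genes. Dcn, the matrix proteoglycan decorin, was under the floor on both dorsal arrays and on 4 of the other 8, both ventral ones among them.

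The endothelial list (9 genes, 0 passed, median -0.15) and the erythroid list (8 genes, 0 passed, median -0.09, and 0.04 after quantile normalization) were near the median of all genes. Ttr, the choroid plexus marker transthyretin, read 74 and 50 on the dorsal arrays, 2151 and 4564 on the medial and 329 and 84 on the ventral ones. Of 7 genes of the cortical hem, hippocampal anlage and choroid plexus 0 passed (median -0.13), and 12 of 13 further ones were at or under the floor on all 12 arrays. Of 4 glial genes 0 passed (median -0.36), with Gja1, the gap junction protein connexin 43, reading 1770 and 1762 against 2700 to 7972 on a probe set whose suffix (_f) marks probes shared by a gene family. Of 5 diencephalic genes 0 passed (median 0.02). The part of these cells in the genes that fell, Apoe and Calb2 among them, was not tested.

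Signalling and guidance genes gave single genes without overlap and no calls. Of 18 areal patterning genes 0 passed. Their median was 0.26, and 0.09 without dorsal replicate 2, 0.15 without ventral replicate 1 and 0.15 without the rostral and occipital arrays. Of the 18, 4 had both dorsal arrays above all 8 others and 2 had both below, against 2.96% and 2.08% of all genes. The lowest difference was that of Nr2f2 (-1.38 ± 0.70 SE), which read 538 and 368 on the dorsal arrays, under the floor, and 708 to 6382 on the others. Wnt7b, a Wnt ligand made by cortical neurons, read 6251 and 7378 on the dorsal arrays and 847 to 4258 on the others, with 1.60 ± 0.47 (SE, limma adjusted p = 0.348). Dusp6, a phosphatase induced by FGF signalling, read 3461 and 2901 against 1110 to 2446 (0.88 ± 0.22). The secreted Wnt modulator Sfrp2 read 4439 and 4412 against 2578 to 3516 (0.57 ± 0.16). Of 21 Wnt pathway genes 0 passed (median 0.0032), and Wnt7b and Sfrp2 belong to that list too.

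Of 29 axon guidance genes 0 passed, and 5 had both dorsal arrays above all others, as did 2.96% of all genes. Sema7a, a membrane-anchored semaphorin, read 7432 and 8682 against 2716 to 4974 (1.05 ± 0.24 SE, limma adjusted p = 0.163). The netrin receptor Unc5c read 1970 and 2173 against 491 to 1861 (0.85 ± 0.19), and the Slit receptor Robo1 4394 and 3108 against 1060 to 3012 (0.89 ± 0.37). The ephrins Efna2 and Efnb2 had 0.41 and 0.28. The netrin gene Ntn1 read 933 and 1041, below all others (1077 to 5170).

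Among synaptic genes 0 of 21 passed, 4 had a positive difference and the median was -0.23 (-0.12 without the ventral and -0.50 without the medial piece in the reference). Gabrb1, a GABA-A receptor subunit, read 561 and 658 against 1597 to 6603 (-2.03 ± 0.54 SE, limma adjusted p = 0.274), and Syn2, a synaptic vesicle protein, 824 and 910 against 1034 to 5681 (-1.41 ± 0.33). Of 21 genes of neuropeptides and secretory granules Npy rose and Resp18 fell (median -0.29, and -0.10 without the ventral piece in the reference). Of 24 cholesterol and fatty acid genes Apoe fell (median -0.01), and the sterol demethylase Cyp51 read 6725 and 7462 against 4130 to 6560. Of 17 ion channel and pump genes 0 passed; the potassium channel Kcnk1 read 1886 and 1597 against 2347 to 4376 (-0.88 ± 0.16, adjusted p = 0.0839).

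The remaining lists held no gene that passed. These were growth factors and receptors (23 genes, median 0.0031), Notch pathway and Id genes (15, -0.12), cell adhesion (26, -0.05), neuronal cytoskeleton and axon growth (35, -0.03), immediate early and stress response (21, -0.09) and glycolysis and hypoxia response (19, -0.05). In chromatin and HMG proteins (37, 0.11), cytosolic ribosomal proteins (24, 0.06), oxidative phosphorylation (57, 0.01), splicing factors (68, 0.09) and the proteasome (39, 0.05) the medians were likewise within 0.12 of 0. The Notch and Id median was -0.365 with the ventral piece left out of the reference and -0.389 without dorsal replicate 2. By region it was -0.52 to medial, -0.36 to occipital, -0.02 to ventral and 0 to rostral, and 5 of the 15 had a positive difference. Without dorsal replicate 2 the median was -0.20 for growth factors, -0.175 for glycolysis and -0.158 for immediate early genes.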

How the data were processed

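Each of 12 arrays (2 per region and 2 of whole hemisphere) gave 1 value per probe set. Per the labels' protocols, poly(A)+ RNA was copied into biotin-labelled cRNA and each array was scanned 2 times (the molecule label says total RNA). The deposited intensity is Affymetrix's average difference, perfect-match minus mismatch signal, which can be negative. The authors' values had been scaled to a common mean: the 2% trimmed means were 2501.6 to 2501.9. The software is not given in the sources used here.

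Values were raised to a floor of 693.5 (root mean square of all negative values) and put on a log2 scale, so differences of dim genes are understated. Readings raised to the floor also lose their spread, so standard errors and p-values of such probe sets can be too small. Of 12488 probe sets, 66 controls were left out, and 5832 above 1387 on at least 2 arrays entered limma 3.58.1 (R 4.3.3). The fit had 6 group means, 6 residual and 2.86 prior degrees of freedom, two-sided p-values and Benjamini-Hochberg adjustment within each comparison at 0.05. Platform annotation named 1 gene for 5292 of these, several for 212 and none for 328. The number of arrays limits the precision. A fold reads "at least" when the lower group never exceeded the floor.

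Named genes were those past the threshold with 1 sign in both replicates (15 largest per direction, 3 per region pair), list members that passed and up to 4 others per list; further genes were chosen after their values were seen. A gene stands for its passing probe set with the highest mean, in lists for its probe set with the highest mean. The contrast, the lists and the tests were chosen with earlier results of these data known. The script was tested on simulated data. Alternatives were other floors, filters and scales, moderated variances with a trend, a replicate block, other reference means and left-out arrays.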

Additional observations from a re-analysis of the deposited data

How the results depend on the processing

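With 2 arrays per region and 6 residual degrees of freedom, the counts of probe sets that passed moved with most settings, while none of the 14 genes that passed changed direction under these alternatives. Npy kept its call under all 24 alternatives. Signal near the floor limits Ccl4, Nfe2l3 and Tgfbr1, which entered the test through the dorsal arrays alone, and which 2 settings (a floor of 1387 and the strict filter) did not test, so their calls elsewhere say little about stability. Tmeff2 and Resp18 are limited by the floor too, with 3 and 4 of 12 arrays at it, both dorsal ones among them. The log2 difference of Resp18 ran from -1.90 to -0.34 over the alternatives, and its call was lost with a floor of 1387. Groups of 2 arrays are too small for a test of outlying arrays. The cause of the moves below was not tested, except that fewer arrays leave fewer degrees of freedom.

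For the dorsal piece against the other 4 regions, 16 probe sets became 6 with a floor of 346.8, 7 on the arcsinh scale, 7 with only the arrays compared, 8 with a reference without ventral, 43 with a reference without medial and 28 without the rostral and occipital arrays. Against medial, 4 became 2 with a floor of 1387, 9 with no filter, 1 with the strict filter, 2 after quantile normalization, 1 on the arcsinh scale, 1 with trend and robust variances and 0 with only the arrays compared. Against ventral, 308 became 188 with no filter. Against rostral, 4 became 1 with a floor of 1387 and 0 with only the arrays compared, and against occipital 6 became 2 and 0. In the 4-array fits of limma that gave 0, 484, 298 and 374 probe sets had an unadjusted p under 0.05. Leaving out each array in turn gave 2 to 16 for the main comparison, 2 to 6 against medial, 49 to 347 against ventral, 2 to 5 against rostral and 0 to 8 against occipital, where the 0 had 273 at an unadjusted p under 0.05.

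With the replicate block, replicate number as a term, 45 probe sets passed in the main comparison, the 16 among them, and 587 passed against ventral, the 308 among them. Lmo4 (adjusted p = 0.0306), Sst (0.0427), Kcnk1 (0.0419), Insm1 (0.0399), Tle3 (0.0399), Cadps (0.0375) and Gria1 (0.0484) of the lists passed in limma's main comparison there and not without the block. The counts against medial, rostral and occipital were 6, 4 and 8. The labels do not say that equal numbers share a dissection, and only 2 numbers exist, so the numbers were not taken as pairs. The differences between replicates 1 and 2 of the dorsal piece correlated at 0.266 to 0.562 with those of the other groups across probe sets. The actin 5′ to 3′ ratio was lower on the array numbered 1 than on the array numbered 2 in every group. It was 0.706 and 0.886 for dorsal, and the pair was closest for occipital (0.831 and 0.84). Arrays of equal number thus shared part of their differences, and the source was not tested.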
